A study of Sus scrofa with 11 samples.

Results

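Expression of the genes that code for collagens, laminins, nidogens and integrins was compared in *M. semimembranosus* between pigs on a low protein (LP) and a high protein (HP) diet. Members were taken by name: probe sets that carry a single platform gene symbol and whose symbol belongs to a collagen chain (COL), a laminin chain (LAM), an integrin (ITGA or ITGB) or a nidogen (NID1 or NID2). The rule found 58 of the 23999 probe sets tested, which represent 32 of the 6765 genes with a single symbol. Each gene was described by its brightest probe set, that is, the one with the highest mean over the 11 arrays, and its other probe sets were set beside it. The animals were purebred Duroc gilts at the finisher stage. The 6 HP pigs received a wheat, barley and soya diet with 217 g/kg crude protein and 13 g/kg lysine for 63 days. The 5 LP pigs received an isocaloric diet of the same ingredients with 128 g/kg crude protein and 7 g/kg lysine for the same 63 days, so that both groups differed in the ratio of protein to carbohydrate and not in protein alone. Total RNA of each pig was hybridised to its own Affymetrix Porcine Genome array, and each value below is an expression level on the log2 scale. The pigs were blocked on initial body weight and penned in groups, but block, pen and slaughter date were not known per pig and did not enter the comparison. The paper does not state whether pens were shared between diets. If each diet had its own pen, pen and diet cannot be told apart.

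Muscle fibres are held together by connective tissue. Fibrillar collagens, in muscle mainly types I, III and V, form the fibres of the endomysium, perimysium and epimysium, and type V chains are built into type I fibrils and limit their width. Each fibre is also wrapped in a basement membrane, a sheet of type IV collagen and laminin networks that nidogens link to each other. Integrins are heterodimers of an alpha and a beta chain that span the cell membrane and tie this outer scaffold to the cytoskeleton.

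Of the 32 genes, 7 belonged to fibrillar collagens (18 probe sets), 5 to the basement membrane (9), 7 to other collagens (11) and 12 to integrins (18), and 1 gene, *ITGB1BP2*, was matched by its name without being an integrin chain (2). A level was taken as above background where it exceeded every one of the 23 negative controls of its array, which the brightest probe set did on all 11 arrays in 23 of the 32 genes. These were 5 of the 7 fibrillar genes, all 5 basement membrane genes, 4 of the 7 other collagens, 8 of the 12 integrins and *ITGB1BP2*. The remaining 9 genes are known mainly from other tissues. The cartilage collagens *COL2A1* and *COL11A1* were above background on 8 and 9 of the 11 arrays, and *COL10A1*, of growth plate cartilage, on no array. The anchoring collagens of skin, *COL7A1* and *COL17A1*, passed on 7 arrays and 1 array. Among integrin chains, *ITGA2B*, of platelets, passed on 8 arrays, while *ITGA2* and the leukocyte chains *ITGAM* and *ITGB7* passed on 1 array each. The platform table gives no single symbol for *COL1A1*, *COL4A1*, *COL6A1*, *LAMA2*, *NID1* or *ITGA7*, which are therefore not among the 32 genes.

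All 11 arrays shared a median of 6.72, and any pair of arrays correlated with r of 0.952 to 0.972. The arrays differed in their bright range. The mean of the hybridisation spike-in controls was 12.04 to 12.22 on HP replicates 1, 2 and 4, 11.30 to 11.87 on the other 3 HP arrays and 11.43 to 11.77 on the LP arrays, and was 0.26 lower in LP on average. They also differed in the 3' minus 5' level of the actin control, a measure of RNA quality. It was 6.46 on HP replicates 2 and 4, 5.38 to 5.87 on the other HP arrays and 5.12 to 5.93 on the LP arrays. Skeletal muscle fibre markers were above background on all arrays in each of the 8 genes that could be measured of 12 listed, which matches the tissue label. All 8 lay below 0 in LP minus HP, with a median of -0.25, and none passed the test. The part of these differences between arrays in the results was not tested. Values without HP replicates 1, 2 and 4 are given beside the genes whose call changed without them.

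On their brightest probe sets, 4 of the 32 genes had lower levels in LP with an unadjusted limma p of at most 0.05, and 0 had higher levels. The genes were the type V collagen chain *COL5A3* and the integrin chains *ITGA8*, *ITGB5* and *ITGB7*. The study also set its cut-off at 0.05, but on P-like values from puma, a different statistic. Among all 6765 genes 3.16% were lower and 1.57% were higher by the same limma rule. *ITGB7* was above background on only 1 HP array and on no LP array. Of the 23 genes above background on all arrays, 3 were lower and 0 were higher, beside 168 and 74 of all 5618 such genes. Counted over single probe sets, 6 of the 58 were lower and 1 was higher, beside 2.97% and 2.15% of all 23999. The 6 include a probe set of *COL17A1* that no array held above background. None of the 23999 probe sets passed after Benjamini-Hochberg adjustment, and the smallest limma adjusted p was 0.644. By the two-sided exact permutation test over the 462 ways to split the arrays, again 4 genes were lower and 0 higher, namely *COL5A3*, *ITGA8*, *ITGB5* and the nidogen *NID2*. Over all 23999 probe sets the exact permutation test called slightly more than limma in either direction, with more lower than higher in LP. LP and HP values did not overlap in *ITGB5* and *NID2*, both lower in LP, which was so for 0.37% of all genes. The values come from whole muscle, in which fewer cells of a type and less RNA per cell cannot be told apart. The p-values measure the spread between single pigs and not between pens.

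Most of the 32 genes lay on the lower side. LP minus HP was below 0 in 24 of 32 genes (75%), with a median of -0.14, beside 57.5% and a median of -0.04 over all 6765 genes. The median was -0.31 over the 7 fibrillar genes (6 below 0), -0.19 over the 5 basement membrane genes (4 below 0), -0.11 over the 7 other collagens (5 below 0) and -0.09 over the 12 integrins (9 below 0). After quantile normalization of the arrays the median of the 32 genes was -0.11 (23 below 0) and that of all genes -0.00351. Without HP replicates 1, 2 and 4 it was -0.13, where that of all genes was 0.06, and the basement membrane median was -0.04. The basement membrane median was -0.11 after quantile normalization and -0.08 with the spike-in level as a covariate. With limma's array weights the median of the other collagens turned to 0.01, with 3 of 7 genes below 0.

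**Figure D1:**
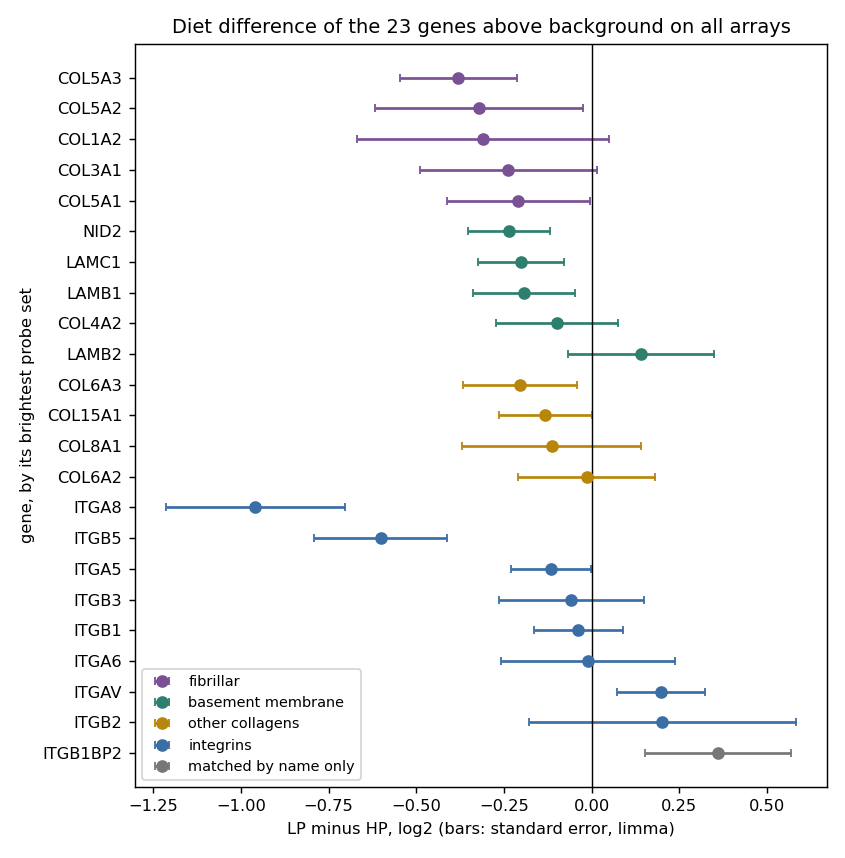
The difference between diets (LP minus HP, log2) is plotted for the 23 genes above background on all 11 arrays, as points with bars of 1 standard error from limma, coloured by group. Of these 23 genes 19 (82.6%) lie left of 0, beside 59.0% of all 5618 genes above background on all arrays. Farthest to the left are *ITGA8* at -0.96 and *ITGB5* at -0.60, and *ITGB1BP2* lies farthest to the right at 0.36.

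Among fibrillar collagens, *COL5A3*, which codes for the alpha-3 chain of type V collagen, was lower in LP at the unadjusted threshold. Its level in HP had a lowest value of 8.87, a median of 9.39 and a highest of 9.64, and the 5 LP pigs had 9.06, 9.04, 8.84, 8.86 and 8.78. All LP pigs were below the HP mean, but 2 HP pigs lay among them. The difference was -0.38 (SE 0.17), a 1.30-fold lower level (limma p = 0.0434, adjusted p = 0.962, exact permutation p = 0.0455). Only 10 of 22 alternative settings kept it past the threshold, and leaving out HP replicate 1, 2, 4 or 6 or LP replicate 2, 3, 4 or 5 ended the call, with differences of -0.47 to -0.31 over all single arrays left out. Without HP replicates 1, 2 and 4, which gave 3 of the 4 highest values, it was -0.15 and did not pass.

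The other 4 fibrillar genes above background on all arrays had differences of the same sign that did not pass the test. *COL1A2*, a chain of type I collagen, had 5.88 ± 0.65 in LP (SD, n = 5) and 6.19 ± 0.62 in HP (SD, n = 6), a difference of -0.31 (SE 0.36). Its LP pigs had 6.46, 6.06, 5.33, 5.07 and 6.47, inside an HP range from 5.65 over a median of 6.005 to 7.34 but for the lowest 2. The type V chain *COL5A2* differed by -0.32 (SE 0.30) and by -0.29 on its other probe set, and *COL5A1* by -0.21 (SE 0.20). LP pigs had 6.14, 6.14, 5.70, 5.31 and 6.51 for *COL5A2*, with HP from 5.59 over a median of 6.20 to 7.29. They had 10.002, 10.09, 9.73, 9.25 and 9.80 for *COL5A1*, with HP from 9.52 over a median of 10.002 to 10.45. The groups overlapped widely in both genes. In these 3 genes the highest value of all pigs was in HP replicate 3, at 7.34 for *COL1A2*, 7.29 for *COL5A2* and 10.45 for *COL5A1*. *COL3A1*, the type III chain, was measured by a probe set with LP values of 8.04, 7.32, 7.17, 8.33 and 7.83 and HP values between 7.44 and 8.49, a difference of -0.24 (SE 0.25). Here HP replicate 3 had the lowest HP value.

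Whether chains that build 1 protein followed each other from pig to pig was examined by correlation over the 11 pigs, each taken relative to its diet mean. A total of 12 relations of a gene with another or with the spike-in mean were computed, 2 of which were listed as pairs and 10 were added after values had been seen. *COL5A1* and *COL5A2*, which are chains of the same type V trimer, had r = 0.80 (permutation p = 0.00426, adjusted 0.0511) and rho = 0.80 (permutation p = 0.00702, adjusted 0.0842). The coefficient was 0.82 within HP and 0.77 within LP, and fell to 0.51 without HP replicate 3 and LP replicate 4, the arrays farthest from the median. *COL5A2* also had r = 0.83 with *COL1A2*, a chain of type I collagen, outside the 12 relations and without a test. A high r was thus not particular to chains of the same trimer. The laminin chains *LAMB1* and *LAMC1*, by contrast, had r = -0.03 (permutation p = 0.948) and rho = 0.18 (permutation p = 0.632), and r = 0.28 without the farthest 2 arrays, with 0.02 within HP and -0.29 within LP. None of the 12 relations passed after adjustment.

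In the basement membrane group no gene passed the limma threshold, although 4 of the 5 genes were on the lower side. *NID2*, a nidogen that bridges laminin and type IV collagen, came closest. HP pigs had a lowest value of 9.97, a median of 10.05 and a highest of 10.39, and LP pigs had 9.93, 9.93, 9.60, 9.92 and 9.96. Every LP pig was below every HP pig, 4 of the 5 by a narrow margin, and LP replicate 3 stood apart. The difference was -0.24 (SE 0.12), with limma p = 0.0684 and exact permutation p = 0.00433.

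Laminin chains did not all lie on the same side. *LAMC1*, the gamma-1 chain shared by most laminins, had LP values of 11.97, 11.89, 11.76, 11.96 and 11.76 and HP values with a lowest of 11.82, a median of 12.11 and a highest of 12.30. All LP pigs were below the HP mean, and the difference was -0.20 (SE 0.12, exact permutation p = 0.0758). Its other 3 probe sets, all above background on all arrays, gave -0.16, -0.01 and 0.10, so the size was not shared within the gene. *LAMB1*, the beta-1 chain, differed by -0.19 (SE 0.15, exact permutation p = 0.180) and by -0.20 on its other probe set. Its LP pigs had 10.33, 10.23, 10.28, 10.05 and 10.25, all below the HP mean, and HP ran from 10.004 over a median of 10.50 to 10.78, with HP replicate 4 the lowest of all pigs. Without that array the difference was -0.28 and passed. *LAMB2*, the beta-2 chain, which is enriched at the neuromuscular junction, differed by 0.14 (SE 0.21), with 10.36 ± 0.22 in LP (SD, n = 5) and 10.22 ± 0.42 in HP (SD, n = 6). Here HP pigs spread widely, from 9.60 over a median of 10.34 to 10.75, around LP pigs at 10.05, 10.48, 10.45, 10.61 and 10.20.

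*COL4A2* codes for the alpha-2 chain of type IV collagen, which in RefSeq's pig assembly Sscrofa11.1 is the direct neighbour of *COL4A1*. Its LP values were 9.90, 9.51, 9.45, 9.55 and 9.50 and HP values ran from 9.22 over a median of 9.66 to 10.26. The difference was -0.10 (SE 0.17) and turned to 0.10 without HP replicates 1, 2 and 4.

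The study's own list of genes altered by diet names further chains through probe sets to which the platform table gives no symbol. These 8 probe sets were chosen by the study on the same pigs, so they are described with no test and are not independent evidence of direction. *LAMA2*, the alpha-2 laminin chain of the muscle basement membrane, was covered by 3 of them, which differed by -0.48 (SE 0.14), -0.43 (SE 0.14) and -0.57 (SE 0.12). On the third, LP pigs ranged from 9.23 to 9.73 and HP pigs from 9.90 to 10.26, with no overlap. *NID1*, the second nidogen, differed by -0.49 (SE 0.12), with 10.37 to 10.70 in LP and 10.76 to 11.24 in HP, again with no overlap. *COL4A1* differed by -0.33 (SE 0.17) and its LP pigs, at 11.35 to 11.56, lay within the HP range of 11.36 to 12.26 except for the lowest. *COL3A1* was named through 2 probe sets that differed by -0.29 (SE 0.14) and -0.28 (SE 0.13). They followed each other from pig to pig (r = 0.97 over the 11 pigs, relative to diet means) but hardly followed the probe set of *COL3A1* that carries the platform symbol (r = 0.15 and 0.29), so 2 readings of this gene stood side by side. *ITGA7*, the integrin chain that binds laminin on muscle fibres, was on the higher side in LP at 0.25 (SE 0.14).

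**Figure D2:**
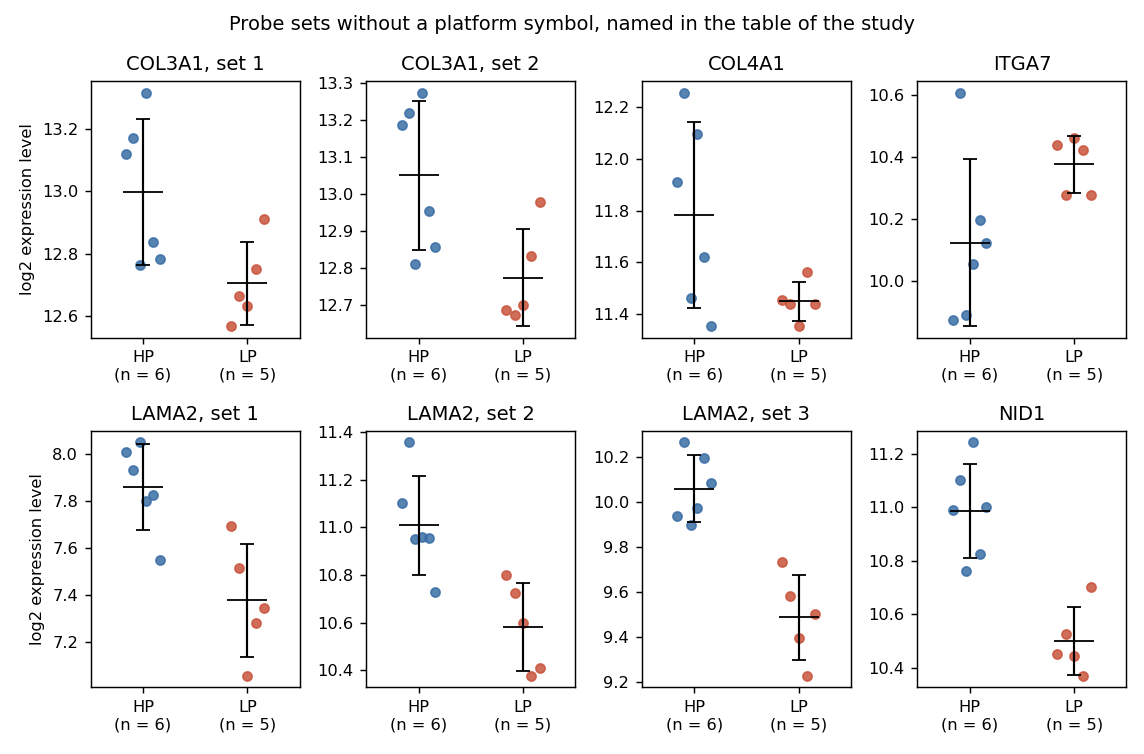
Log2 expression level (vertical axis) of the 8 probe sets named in the study's list and without a platform symbol is plotted for each pig, HP in blue (n = 6) and LP in red (n = 5), with the mean and SD as bars. The LP points lie below all HP points for the third probe set of *LAMA2* (up to 9.73 against 9.90 and above) and for *NID1* (up to 10.70 against 10.76 and above), while LP is on the upper side for *ITGA7*.

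Among the other collagens no gene passed on its brightest probe set. Type VI collagen forms the beaded microfibrils next to the basement membrane. Its chain *COL6A3* had LP values of 11.75, 11.81, 11.56, 11.65 and 11.75, while 4 HP pigs lay between 12.08 and 12.14 and the other 2 at 11.43 and 11.54, so HP pigs fell on either side of all LP pigs (difference -0.20, SE 0.16). *COL6A2* differed by -0.01 (SE 0.19), with 8.54 ± 0.23 in LP (SD, n = 5) and 8.55 ± 0.38 in HP (SD, n = 6). Its LP pigs had 8.65, 8.77, 8.68, 8.26 and 8.32, and HP ran from 8.25 over a median of 8.49 to 9.27, the last in replicate 3 alone. The 2 chains had r = 0.56 across the arrays (permutation p = 0.134, adjusted 0.405) and rho = 0.57 (permutation p = 0.0923, adjusted 0.554), with r = 0.45 without the 2 farthest arrays, 0.64 within HP and 0.15 within LP. *COL15A1*, which lies at the outer face of the basement membrane, differed by -0.13 (SE 0.13). LP pigs had 10.91, 10.78, 10.70, 10.79 and 11.21 and HP ran from 10.77 over a median of 11.05 to 11.23, so that the groups overlapped.

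*COL8A1*, a short-chain collagen of vessel walls, gave different readings by probe set. Its brightest probe set differed by -0.11 (SE 0.26), with LP values of 5.04, 5.07, 5.09, 4.80 and 4.97 inside an HP range of 4.09 to 5.63. The dimmest of its 4 probe sets, which refers to the same transcript record, had LP values of 2.84, 3.57, 3.21, 3.84 and 3.29 and HP values from 3.13 over a median of 4.33 to 4.96. That set differed by -0.87 (SE 0.33, limma p = 0.0223, exact permutation p = 0.0411), and it is the one in the study's list. Without LP replicate 1 it did not pass (-0.74). The remaining 2 gave -0.22 and -0.46, so all 4 were on the lower side, by very unequal amounts.

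*COL17A1*, a skin collagen, gave opposite signs at background. On its brightest probe set, above background on 1 HP array and no LP array, LP pigs had 1.01, 0.37, 0.86, 0.14 and -1.12 and HP pigs ran from -2.51 over a median of -0.60 to 2.15. The difference was 0.85 (SE 0.75), and it passed without HP replicate 3 (1.41). The other probe set, above background on no array, had LP values of -1.55, -1.66, -0.81, -0.80 and -0.53 and HP values from -1.17 over a median of 0.10 to 1.24. It differed by -1.14 (SE 0.38, limma p = 0.0118, exact permutation p = 0.0216), and by 0.02 with a floor.

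Integrins included the largest differences above background. *ITGB5* codes for the beta-5 chain, which pairs with the alpha-v chain to bind vitronectin. HP pigs had a lowest level of 8.93, a median of 9.21 and a highest of 9.41, and LP pigs had 8.52, 8.83, 8.88, 8.76 and 7.89. All LP pigs lay below all HP pigs, with LP replicate 5 the lowest. The difference was -0.60 (SE 0.19), a 1.52-fold lower level, with limma p = 0.00899, adjusted p = 0.908 and exact permutation p = 0.00216, the smallest this design allows. It stayed past the threshold in 21 of 22 alternative settings, the exception being the fit without HP replicates 1, 2 and 4 (-0.50). Median centring and means over probe sets could hardly change it, as the arrays share a median and the gene has a single probe set.

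The alpha chain that pairs with *ITGB5* lay on the other side without passing the test. *ITGAV* had LP values of 8.96, 8.60, 8.65, 8.88 and 8.74 and HP values with a lowest of 8.25, a median of 8.61 and a highest of 8.78. Every LP pig was above the HP mean, but the difference of 0.20 (SE 0.13) did not pass (limma p = 0.143, exact permutation p = 0.0974). Across pigs the pair had r = -0.11 (permutation p = 0.751) and rho = -0.28 (permutation p = 0.420), with r = -0.16 without the farthest 2 arrays, -0.02 within HP and -0.20 within LP. The ligand gene *VTN* was above background on 7 of the 11 arrays and differed by 0.91 (SE 0.72).

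*ITGA8*, whose product pairs with the beta-1 chain and is known from smooth muscle and pericytes, was lower in LP on a low level. HP pigs had a lowest value of 4.42, a median of 4.94 and a highest of 5.14, and LP pigs had 4.17, 3.41, 4.63, 4.19 and 3.26. Of the 5 LP pigs 4 lay below every HP pig, and LP replicate 3 lay among them. The difference was -0.96 (SE 0.25), a 1.94-fold lower level (limma p = 0.00319, adjusted p = 0.736, exact permutation p = 0.00649). It passed in all 21 alternative settings that gave a value. The other 2 probe sets of the gene gave -0.48 (SE 0.35) and -0.91 (SE 0.57), neither of which passed, and the latter was above background on 6 HP but only 2 LP arrays. Of the 6 measured genes in a list of pericyte and smooth muscle markers 1, *RGS5*, was lower in LP (-0.44, SE 0.14, limma p = 0.00804, exact permutation p = 0.00866), at 10.14 ± 0.18 in LP (SD, n = 5) and 10.58 ± 0.21 in HP (SD, n = 6). Without HP replicates 1, 2 and 4 *RGS5* did not pass (-0.37). The 6 genes had a median of -0.15 and a summed level of 13.37 to 13.53 in LP and 13.26 to 14.01 in HP. The gene that weighs most in this sum is *DES* (mean level 12.90, followed by *ACTA2* at 10.61). *DES* is also one of the skeletal muscle fibre markers, so the sum is not a measure of pericytes and smooth muscle alone. The part of pericytes and smooth muscle in the difference of *ITGA8* was not tested.

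*ITGB7*, the beta-7 chain of leukocytes, passed the threshold at -1.32 (limma p = 0.0351, exact permutation p = 0.0606), but only 1 HP array and none of the LP arrays held it above background, and its fold is left out. LP pigs had 0.24, -1.24, 0.15, 0.79 and -0.42 and HP ran from -0.19 over a median of 1.10 to 2.86. It also failed the threshold without HP replicate 1, 3 or 5 or LP replicate 2 or 5 and without HP replicates 1, 2 and 4 together (-1.66). The same held with means over probe sets, with the spike-in covariate and with another prior. With low values raised to a floor the difference was 0.01. *ITGB1*, the common partner of most alpha chains in muscle, had 11.73 ± 0.19 in LP (SD, n = 5) and 11.77 ± 0.15 in HP (SD, n = 6), a difference of -0.04 (SE 0.13) that turned to 0.04 under quantile normalization. Its partners *ITGA5*, of the fibronectin receptor, and *ITGA6*, of a laminin receptor, differed by -0.12 (SE 0.11) and -0.01 (SE 0.25). LP pigs had 7.43, 7.58, 7.44, 7.28 and 7.43 for *ITGA5*, with HP from 7.34 over a median of 7.59 to 7.72. They had 6.83, 6.98, 5.76, 5.94 and 6.70 for *ITGA6*, with HP from 5.97 over a median of 6.51 to 6.82. Both overlapped, and for *ITGA6* LP pigs were spread on either side of HP. The leukocyte chain *ITGB2* differed by 0.20 (SE 0.38), and the platelet and vessel chain *ITGB3* by -0.06 (SE 0.21). None of these 5 passed. *ITGA5* and *ITGB1* had r = -0.32 over the 11 pigs relative to diet means (permutation p = 0.338) and rho = -0.27 (permutation p = 0.424), with -0.17 without the farthest 2 arrays, -0.34 within HP and -0.32 within LP, and r turned to 0.0594 after quantile normalization.

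**Figure D3:**
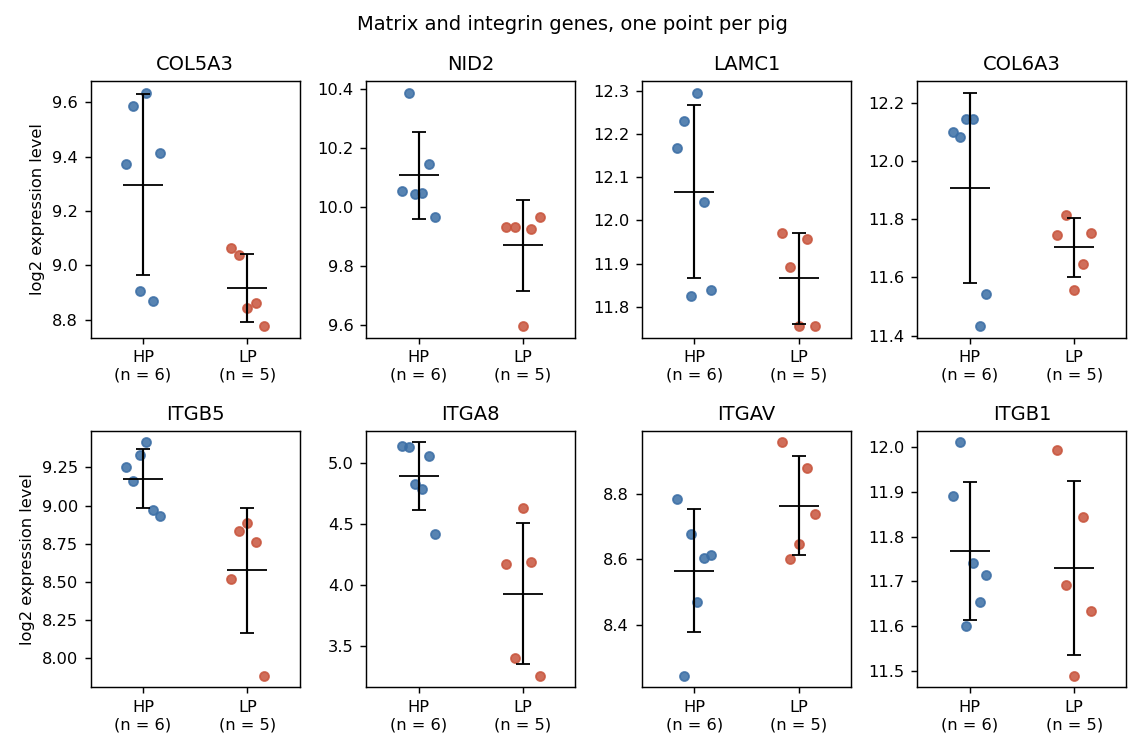
Log2 expression level (vertical axis, scaled per gene) of 8 genes is plotted for each pig, HP in blue (n = 6) and LP in red (n = 5), with the mean and SD as bars. LP points lie below all HP points for *ITGB5* (8.88 at most, against 8.93 at least) and *NID2* (9.96 against 9.97), overlap with HP for *COL5A3*, *LAMC1*, *COL6A3* and *ITGA8*, and lie on the upper side for *ITGAV*, while *ITGB1* covers much the same range in both diets, 11.60 to 12.01 in HP and 11.49 to 11.99 in LP.

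*ITGB1BP2*, which the rule matched by name, codes for melusin, a muscle protein that binds the inner tail of the beta-1 integrin chain. Of the 4 genes that lay above 0 among the 23 on all arrays it had the largest difference, at 0.36 (SE 0.21, limma p = 0.111, exact permutation p = 0.123). LP pigs had 11.68, 12.10, 12.08, 12.30 and 12.24, and HP pigs had a lowest level of 11.31, a median of 11.62 and a highest of 12.41. Of the 6 HP pigs 4 lay below every LP pig, while replicate 5 lay among them and replicate 2 above them. Without HP replicate 2 the difference was 0.50 and passed in limma, and without HP replicates 1, 2 and 4 it was 0.53 and passed. Its other probe set followed it closely (r = 0.98 with diet means removed) and differed by 0.58 (SE 0.24, limma p = 0.0380, exact permutation p = 0.0563).

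Several probe sets of a gene thus did not always give the same size. Of the 32 genes 16 had several probe sets, at most 6 (*COL5A1*), and 34 of the 58 probe sets were above background on all arrays. The 3 probe sets of *COL5A1* that lay above background on all arrays gave -0.21, -0.08 and -0.17 and correlated with r of 0.72 to 0.90 across pigs. Over those of *LAMC1* r ran from 0.37 to 0.74. The 2 dimmer probe sets of *COL5A3*, above background on 1 array and on no array, gave -0.36 and -0.47 with errors too large to add to the reading of the brightest.

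**Figure D4:**
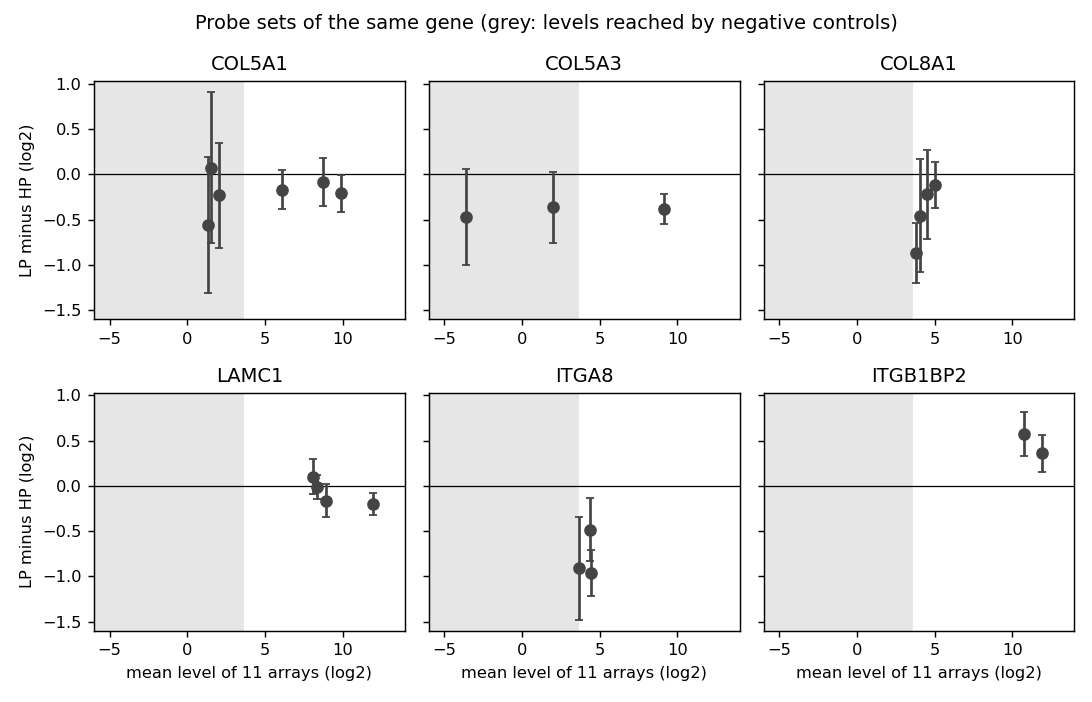
Each point is a probe set of the named gene, plotted by its mean log2 level over the 11 arrays (horizontal axis) and its LP minus HP difference with bars of 1 standard error (vertical axis), and grey marks levels that negative controls reached. For *ITGA8* and *COL8A1* all probe sets lie below 0, at -0.96 to -0.48 and -0.87 to -0.11, for *ITGB1BP2* both lie above 0, at 0.36 and 0.58, and for *LAMC1* they spread from -0.20 to 0.10.

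No measured partner at the cell surface or in the basement membrane passed on the deposited values. In a list of 43 partners of basement membranes and adhesion sites 21 genes could be measured, and 0 passed in limma at the unadjusted threshold or in the exact permutation test. The measured genes include the proteoglycans *SDC1*, *SDC2* and *SDC4*, the sarcoglycan *SGCD*, tetraspanins, talin and other adaptors. Dystroglycan and the other sarcoglycans were not measured. The median difference of the 21 genes was 0.00202 (8 below 0). Lowest in p were the matrix protein *SPARC* at -0.30 (SE 0.15), fibronectin *FN1* at -0.39 (SE 0.19) and the integrin-linked adaptors *LIMS1* at 0.25 (SE 0.14) and *LIMS2* at -0.22 (SE 0.13). *SPARC* and *FN1* lay near the threshold. *FN1* passed with the spike-in covariate (-0.52), with another prior, with dim probe sets left out, and without HP replicate 5 (-0.49) or LP replicate 1 (-0.47). *SPARC* passed with array weights (-0.28), with another prior, with dim probe sets left out, and without HP replicate 3 (-0.37) or 6 (-0.35). *LIMS1* passed without HP replicate 2 (0.31) and, with the adaptor *TLN1* (0.35), without HP replicates 1, 2 and 4 (0.40). *FN1* had 10.90 ± 0.22 in LP (SD, n = 5) and 11.30 ± 0.38 in HP (SD, n = 6).

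Of 23 genes for the folding and processing of procollagen 9 could be measured, with a median of -0.16 and 7 below 0. On the deposited values only *PLOD3*, a lysyl hydroxylase of collagen chains, was lower in LP, at -0.39 (SE 0.16, limma p = 0.0295, exact permutation p = 0.0303). The call was lost without HP replicate 2, 3 or 6 or LP replicate 4 or 5. Its level was 6.95 ± 0.26 in LP (SD, n = 5) and 7.34 ± 0.22 in HP (SD, n = 6). *PCOLCE2*, an enhancer of procollagen cleavage, differed by -0.61 (SE 0.33), *COLGALT1* by -0.16 and *P4HA2* by -0.18, and none of them passed, although *PCOLCE2* did with the spike-in covariate (-0.99), without HP replicates 1, 2 and 4 (-0.91) and without HP replicate 2 (-0.80) or 5 (-0.75). The collagen chaperone *SERPINH1* differed by 0.01 (SE 0.20).

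Markers of the cells that make these proteins were set beside them. In 7 measured fibroblast genes 0 passed in limma, the median was -0.26 (5 below 0), and *DCN*, the decorin gene, was lower by the exact permutation test (-0.28, SE 0.13, p = 0.0346). Without HP replicate 5, *DCN*, *FBN1* and *THY1* passed in limma (-0.37, -0.34 and -0.64). With the spike-in covariate 3 of the 7 passed, *FBLN1* (-0.83, against -0.35 without the covariate), *THY1* (-0.81, against -0.49) and *DPT* (-0.38, against -0.25). *DCN* also passed in limma with a floor, with another prior and with dim probe sets left out. The summed level of these 7 genes was 13.73 to 13.94 in LP and 13.63 to 14.24 in HP. Of the 8 endothelial genes 0 passed (median -0.08), of the 7 adipocyte genes 0 (median 0.08, with *LEP* at 0.74, SE 0.34, past the threshold with a floor, with another prior, and when HP replicate 4 or 6 or LP replicate 3 was left out), and of the 5 macrophage genes 0 (median -0.33, all below 0). No gene passed among 4 satellite cell, 2 Schwann cell and 4 platelet and blood genes either, although the Schwann cell gene *S100B* did without HP replicate 5 (-0.57). The part of these cells in the results for collagens and integrins was not tested.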

How the data were processed

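The authors deposited log2 expression levels per probe set, 1 Affymetrix Porcine Genome array per pig. They pre-processed the scans in R and Bioconductor and used puma for their own fold changes. How the deposited values were background-corrected and scaled is not given in the sources used here. Names come from the platform table (10069 probe sets with 1 symbol, 198 with several, the latter unnamed), whose symbols can be old. The 2 probe sets with a member among several symbols were left out.

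The 124 control probe sets were left out and 23999 tested as deposited with limma 3.58.1 (lmFit, eBayes) in R 4.3.3, two-sided. Calls were made at an unadjusted p of 0.05, the cut-off that the study set on its P-like values from puma. Benjamini-Hochberg values were taken over all probe sets. The fit was tested on simulated data. Single genes were also tested by exact permutation, and relations by 100000 permutations within diets. Summed levels are the log2 of summed linear levels. Arrays have no read depth, so their number limits the precision. Members and gene lists were chosen with earlier results of these data known. Values per pig were given for genes called, for the 4 genes of each group with the smallest p and for the main muscle chains. Alternatives were quantile normalization, median centring, a filter, a floor, another prior, array weights, a replicate block, a spike-in covariate, means over probe sets, the exact test and leaving out arrays. Since all arrays already shared a median, median centring could hardly change a value. Leaving out HP replicates 1, 2 and 4 together was chosen after seeing the data.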

Additional observations from a re-analysis of the deposited data

Results flagged for a closer look

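In the 23 genes above background on all arrays, 46 groups of pigs were checked with Dixon's test for a pig far from its group, and 3 were marked, where chance marks about 1 group in 20. *COL4A2* was 9.90 in LP replicate 1, and the other LP pigs had 9.45 to 9.55. *COL6A2* was 9.27 in HP replicate 3, beside 8.25 to 8.56 in the other HP pigs. *NID2* was 9.60 in LP replicate 3, beside 9.92 to 9.96 in the other LP pigs.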

How the results depend on the processing

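The 4 genes lower in LP became 2 with dim probe sets left out, where 17 of the 32 genes remained and *ITGA8* and *ITGB7* were not tested. The count was also 2 with means over probe sets and with the spike-in covariate. It was 1 without HP replicates 1, 2 and 4 together, and 2 to 4 when each array was left out. The 0 genes higher in LP became 1 (*ITGB1BP2*) after quantile normalization (0.46), with the spike-in covariate (0.57) and without these 3 arrays (0.53), and 0 to 1 when each array was left out (*ITGB1BP2* without HP replicate 2, *COL17A1* without HP replicate 3). Over all probe sets the number higher in LP also rose, least after quantile normalization, more with the covariate and most without the 3 arrays. The number lower in LP rose by less in each of these settings. Whether the gain of *ITGB1BP2* goes beyond this wider rise was not tested. The 1 fibrillar gene became 0 with means over probe sets, with the replicate block, with the spike-in covariate and without the 3 arrays (0 to 1 over single arrays). The 0 basement membrane genes became 1 by the exact test (0 to 1 over single arrays). The 3 integrins became 1 with dim probe sets left out, where only 5 integrins were tested, and 1 without the 3 arrays (2 to 3 over single arrays). No other collagen was lower in any of these settings. With the replicate block, 3 of the 32 genes were lower (*ITGA8*, *ITGB5* and *ITGB7*), with HP replicate 6 unpaired and so of no weight. Deviations of same-numbered pigs correlated at -0.07 to 0.08, so the numbers are not taken to pair the pigs. Directions turned for small differences and at background level. *COL4A2* was 0.0159 with the spike-in covariate and 0.102 without the 3 arrays, *COL6A2* 0.0868 with array weights, *ITGA6* 0.0634 with the block and 0.00343 without the 3 arrays, *ITGB1* 0.0399 after quantile normalization, 0.0229 with the spike-in covariate and 0.0746 without the 3 arrays, and *ITGB2* -0.0296 with the spike-in covariate. At background level, with a floor, *ITGB7* turned from -1.32 to 0.00814 and the dimmer probe set of *COL17A1* from -1.14 to 0.0247. Over single arrays *COL4A2* ran from -0.191 to 0.0184, *COL6A2* from -0.0749 to 0.130, *ITGA6* from -0.143 to 0.160, *ITGB1* from -0.104 to 0.0224, *ITGB2* from -0.0672 to 0.385 and *ITGB3* from -0.160 to 0.0558. After quantile normalization r was 0.189 for *LAMB1* with *LAMC1* and 0.0594 for *ITGA5* with *ITGB1*. Over single arrays r ran from -0.332 to 0.541 for *LAMB1* with *LAMC1* and from -0.0468 to 0.295 for *ITGB5* with the spike-in mean. *LAMB1* passed without HP replicate 4 (-0.28). The causes were not tested. Genes near background, 9 of the 32, have levels too low for a reading of their differences.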

Other observations

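High values of the member genes were concentrated on few arrays. Of the 23 genes above background on all arrays, 8 had their highest level in HP replicate 2 (*COL15A1*, *COL3A1*, *COL4A2*, *ITGB1*, *ITGB1BP2*, *LAMB1*, *LAMB2* and *NID2*) and 7 in HP replicate 3 (*COL1A2*, *COL5A1*, *COL5A2*, *COL6A2*, *COL6A3*, *COL8A1* and *ITGB3*). Over the 5618 genes above background on all arrays, 14.4% were highest in HP replicate 2 and 5.68% in HP replicate 3, and 36.5% in HP replicate 4, where 4 of the 23 genes were highest. HP replicate 3 had the lowest spike-in mean of all arrays, at 11.3. Of its fibrillar and type VI collagen levels among these 23 genes, only *COL3A1* and *COL5A3* were not the highest of all pigs, and lay at 7.44 and 8.90, near the bottom of the HP range. *COL1A2* and *COL3A1* had r = -0.41 over the 11 pigs relative to diet means (permutation p = 0.236) and rho = -0.27 (permutation p = 0.471), with 0.32 without HP replicate 3 and LP replicate 4, -0.83 within HP and -0.01 within LP. In Sscrofa11.1 *COL3A1* and *COL5A2* are neighbours, and their r was -0.44 (permutation p = 0.194, rho = -0.21, permutation p = 0.564), with -0.70 without the farthest 2 arrays, -0.63 within HP and -0.23 within LP. Both relations rest on the *COL3A1* probe set with the platform symbol, whose mean level was 7.87. On the 2 brighter probe sets that the study names *COL3A1* (means 12.87 and 12.93), r was -0.22 and -0.28 with *COL1A2*. With *COL5A2* their r was -0.05 and -0.13.

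The level of *COL5A3* and the spike-in mean of the array had r = 0.48 over the 11 pigs with diet means removed (permutation p = 0.265) and rho = 0.37 (permutation p = 0.341), with 0.01 without HP replicates 2 and 4. The coefficient was 0.60 within HP and -0.73 within LP, each from few arrays, and whether the diets differ in it was not tested. For *ITGB5*, *ITGA8* and *NID2* the same r was 0.10, 0.28 and 0.40, with permutation p of 0.681, 0.270 and 0.264. *NID2* and *LAMC1*, whose products bind each other, had r = 0.47 (permutation p = 0.172) and rho = 0.43 (permutation p = 0.191), with 0.22 without the farthest 2 arrays, 0.49 within HP and 0.51 within LP.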
